A study of Homo sapiens with 5 samples.

Results

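The AP-1 family genes examined here were JUN, JUNB, JUND, FOS, FOSB, FOSL1, FOSL2, ATF3, BATF3 and MAFF, 10 of the 20037 protein-coding genes of the RefSeq table of GRCh38.p14. They were chosen by name, with earlier results of these data known. A peak was assigned to a gene when it lay inside the gene or within 10 kb of it, and 57 peaks met this rule at 8 of the 10 genes. Of all 20037 protein-coding genes, 53.1% had no peak in any library. The peaks came from ChIP-seq of 2 transcription factors, IRF3 and Smad3, in cells of BT549, an established cell line of basal-like breast cancer. Cells had been infected with lentiviral vectors to carry HA, the control, or caSmad3, a constitutively active Smad3. IRF3 was precipitated from both kinds of cell after transfection of polyI:C, a synthetic double-stranded RNA, with no TGF-beta added. Smad3 was precipitated from HA cells after mock transfection and from HA cells after polyI:C, both with TGF-beta at 1 ng/ml for 1.5 h, and from caSmad3 cells that had polyI:C but no TGF-beta. The labels do not say whether the infected cells were clones, nor how much polyI:C was given or for how long.

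Each of the 5 groups held 1 library, so no difference between conditions could be tested. The lists held 4125 and 8067 IRF3 peaks in HA and caSmad3 cells, and 353, 786 and 6041 Smad3 peaks in mock-transfected HA cells, HA cells given polyI:C and caSmad3 cells. Read depth is unknown, so a peak that is not listed was not detectable at an unknown depth. Peak lists hold no expression values, so the labelled cell type could not be checked against its markers.

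AP-1 is a dimer of basic leucine zipper proteins. JUN proteins pair with each other or with FOS proteins, FOS proteins need a JUN partner to bind DNA, and ATF3, BATF3 and the small MAF protein MAFF join the same network of dimers. Several of these genes are immediate early genes, which stress and growth signals switch on within minutes. AP-1 is a known partner of Smad3 at TGF-beta target genes, and it takes part with IRF3 and NF-kB in the enhanceosome of the interferon beta gene.

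The promoters of JUN, JUNB, JUND and FOS are shown first because peaks of both factors were listed there in caSmad3 cells. Each line gives the 250 bases before the RefSeq transcript start (GRCh38.p14), 5′ to 3′ on the strand of the gene, and capitals mark the bases that lay under both an IRF3 and a Smad3 peak of caSmad3 cells. The windows are chr1:58784048-58784297 (minus strand) for JUN, chr19:12791236-12791485 (plus strand) for JUNB, chr19:18281623-18281872 (minus strand) for JUND and chr14:75278578-75278827 (plus strand) for FOS.
JUN: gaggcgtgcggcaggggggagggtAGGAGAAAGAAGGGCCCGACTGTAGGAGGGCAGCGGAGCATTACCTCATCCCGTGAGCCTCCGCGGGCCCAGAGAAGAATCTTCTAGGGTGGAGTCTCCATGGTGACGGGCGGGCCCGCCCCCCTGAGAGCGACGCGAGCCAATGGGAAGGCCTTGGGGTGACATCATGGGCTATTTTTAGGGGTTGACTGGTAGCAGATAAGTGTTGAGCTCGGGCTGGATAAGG
JUNB: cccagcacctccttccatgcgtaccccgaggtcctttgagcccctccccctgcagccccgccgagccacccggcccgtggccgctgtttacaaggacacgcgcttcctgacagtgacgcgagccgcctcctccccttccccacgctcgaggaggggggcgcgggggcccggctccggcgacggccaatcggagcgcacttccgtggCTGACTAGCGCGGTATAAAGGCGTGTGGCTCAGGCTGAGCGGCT
JUND: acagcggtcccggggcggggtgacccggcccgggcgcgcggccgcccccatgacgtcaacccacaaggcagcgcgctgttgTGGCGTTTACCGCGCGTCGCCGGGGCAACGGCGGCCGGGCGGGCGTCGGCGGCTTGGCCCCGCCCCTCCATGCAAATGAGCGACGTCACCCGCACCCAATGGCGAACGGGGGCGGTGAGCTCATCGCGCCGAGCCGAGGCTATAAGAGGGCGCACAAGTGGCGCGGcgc
FOS: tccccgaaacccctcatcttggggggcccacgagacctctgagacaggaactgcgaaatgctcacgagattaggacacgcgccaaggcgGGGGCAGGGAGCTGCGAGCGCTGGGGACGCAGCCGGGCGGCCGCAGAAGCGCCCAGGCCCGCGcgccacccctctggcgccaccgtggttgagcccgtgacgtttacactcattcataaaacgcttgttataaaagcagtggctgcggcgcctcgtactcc
The doubly covered stretch reached from 226 bases before the start up to the start at JUN and from 44 bases before it up to the start at JUNB, and in both genes it went on into the transcribed part. At JUND it ran from 169 to 4 bases before the start and at FOS from 161 to 99 bases before it. FOS had another such stretch beyond the bases shown, from 162 to 285 bases behind the start.

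The number of members with a peak differed by library. IRF3 peaks were listed at 5 of the 10 genes in HA cells (JUN, JUNB, FOS, FOSL1 and MAFF), where 23.6% of all protein-coding genes had a peak. In caSmad3 cells they were listed at 8 of 10, against 40.5% of all genes, with JUND, FOSB and FOSL2 added to the 5. Smad3 peaks were listed at 0 of 10 genes in mock-transfected HA cells, against 0.918% of all genes, and a count of 0 allows a share of up to 30% by the limit of 3 counts, or 30.8% by the Clopper-Pearson interval. After polyI:C in HA cells there were 3 (JUN, JUNB and FOS), against 2.53%, and in caSmad3 cells 5 (JUN, JUNB, JUND, FOS and FOSL1), against 19.9%. With 10 members, each gene moves a share by 10%. Among the wider 50% of the peaks of each library, IRF3 was left at 3 genes in HA cells and 5 in caSmad3 cells. A window of 50 kb raised the Smad3 count of caSmad3 cells to 8. The share of all genes was not counted under these settings, so the changed counts cannot be set against the shares above. The median number of peaks per member was 0.5 for IRF3 in HA cells, 1 for IRF3 in caSmad3 cells and 0.5 for Smad3 in caSmad3 cells, where the median over all protein-coding genes was 0 each time.

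**Figure D1:**
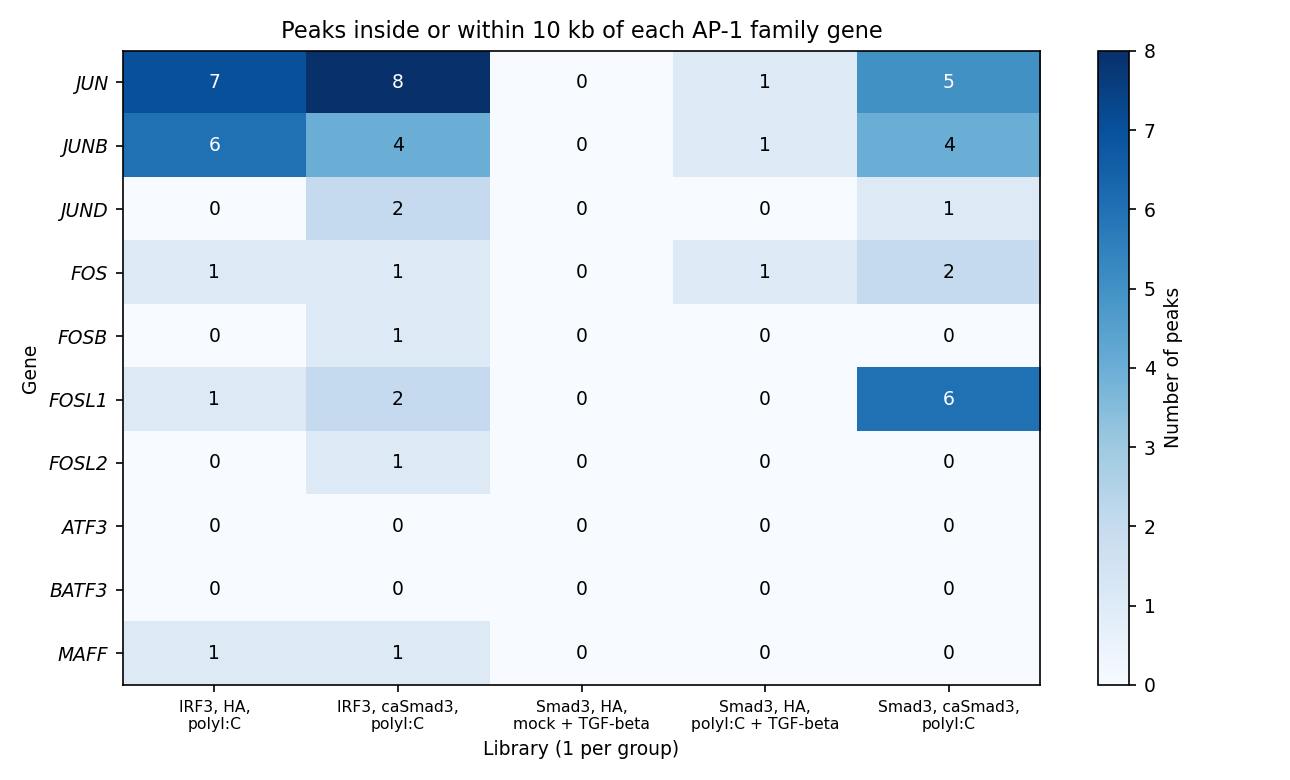
Number of deposited peaks inside or within 10 kb of each AP-1 family gene (rows) in each of the 5 libraries (columns, 1 library per group), by colour and as a number. JUN and JUNB hold most of the peaks, with 7 and 6 for IRF3 in HA cells, and ATF3 and BATF3 have 0 in all 5 libraries.

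JUN and JUNB together held 13 of the 16 member peaks of IRF3 in HA cells, 12 of the 20 in caSmad3 cells, and 9 of the 18 Smad3 peaks of caSmad3 cells. Both genes, like JUND, are known to have no introns. Peaks followed one another along the bodies of JUN and JUNB, and whether neighbouring peaks were separate binding sites was not tested. Neither input nor IgG was analysed here, so whether signal along a gene body came from the precipitated factor was not tested.

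JUN encodes c-Jun, the partner of FOS proteins in classical AP-1 (chromosome 1, 58780791 to 58784047, minus strand, 3257 bases). It had 7 IRF3 peaks in HA cells, 8 in caSmad3 cells, 0 Smad3 peaks after mock transfection, 1 after polyI:C in HA cells and 5 in caSmad3 cells. IRF3 counts as high as these were rare, since 12 protein-coding genes had 7 or more IRF3 peaks in HA cells and 3 had 8 or more in caSmad3 cells. The IRF3 peaks of HA cells all touched the gene and covered 46.6% of its body, and those of caSmad3 cells covered 53.9%. As much of the body was covered at 0.324% and 0.299% of all protein-coding genes, a measure that favours short genes. The widest IRF3 peak lay over the transcript start in both lists, with 594 bases in HA cells (58783666 to 58784259) and 602 bases in caSmad3 cells (58783672 to 58784273), and these 2 peaks shared 588 bases. They were wider than 96.9% and 96.0% of the peaks of their libraries.

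Smad3 at JUN was also found around the start. The 1 peak of HA cells with polyI:C plus TGF-beta measured 264 bases (58783819 to 58784082), reached from 35 bases before the start to 228 bases behind it, and lay wholly inside the IRF3 peak of HA cells. In caSmad3 cells the widest Smad3 peak measured 747 bases (58783216 to 58783962), wider than 98.6% of that list, and ran from 85 to 831 bases behind the start. A second Smad3 peak of 253 bases (58784024 to 58784276) covered the start, and another of 153 bases (58784338 to 58784490) lay upstream of it and shared 125 bases with an IRF3 peak of 236 bases (58784366 to 58784601). That upstream IRF3 peak had no counterpart in HA cells. The remaining Smad3 peaks were 1 of 99 bases inside the gene (58781824 to 58781922) and 1 of 262 bases that lay 655 bases beyond the end of the gene (58779875 to 58780136).

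JUNB encodes JunB, which often opposes c-Jun and is a known TGF-beta target (chromosome 19, 12791486 to 12793315, plus strand, 1830 bases). It had 6 IRF3 peaks in HA cells, 4 in caSmad3 cells, and 0 Smad3 peaks after mock transfection, 1 after polyI:C in HA cells and 4 with caSmad3. The IRF3 peaks covered 71.4% of the gene body in HA cells and 39.0% in caSmad3 cells. Its neighbour HOOK2 overlaps the first part of JUNB, so peaks there cannot be assigned to 1 of these genes by position alone. IRF3 covered the start with 448 bases in HA cells (12791306 to 12791753) and 480 bases in caSmad3 cells (12791299 to 12791778). Over the end of the gene IRF3 had 512 bases in HA cells (12793120 to 12793631) and 313 bases in caSmad3 cells (12793307 to 12793619). IRF3 thus lay over both ends of JUNB in both lists. A peak of 110 bases within the gene (12791956 to 12792065) was listed in HA cells only. The most distant pair of IRF3 peaks, 290 bases in HA cells and 288 bases in caSmad3 cells, lay over PRDX2, a peroxidase gene, 8270 and 8351 bases beyond JUNB.

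Unlike at JUN, the widest Smad3 peaks at JUNB lay past the end of the gene. The peak of HA cells given polyI:C measured 267 bases and began 141 bases beyond the gene (12793456 to 12793722). That of caSmad3 cells measured 520 bases and began 160 bases beyond the gene (12793475 to 12793994). Both overlapped the IRF3 peak over the end of the gene in the same cells, by 176 bases in HA cells and 145 bases in caSmad3 cells. In caSmad3 cells Smad3 was also listed over the start (173 bases, 12791442 to 12791614), inside the gene (119 bases, 12792349 to 12792467) and inside HOOK2, 8374 bases from JUNB (224 bases, 12782889 to 12783112).

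**Figure D2:**
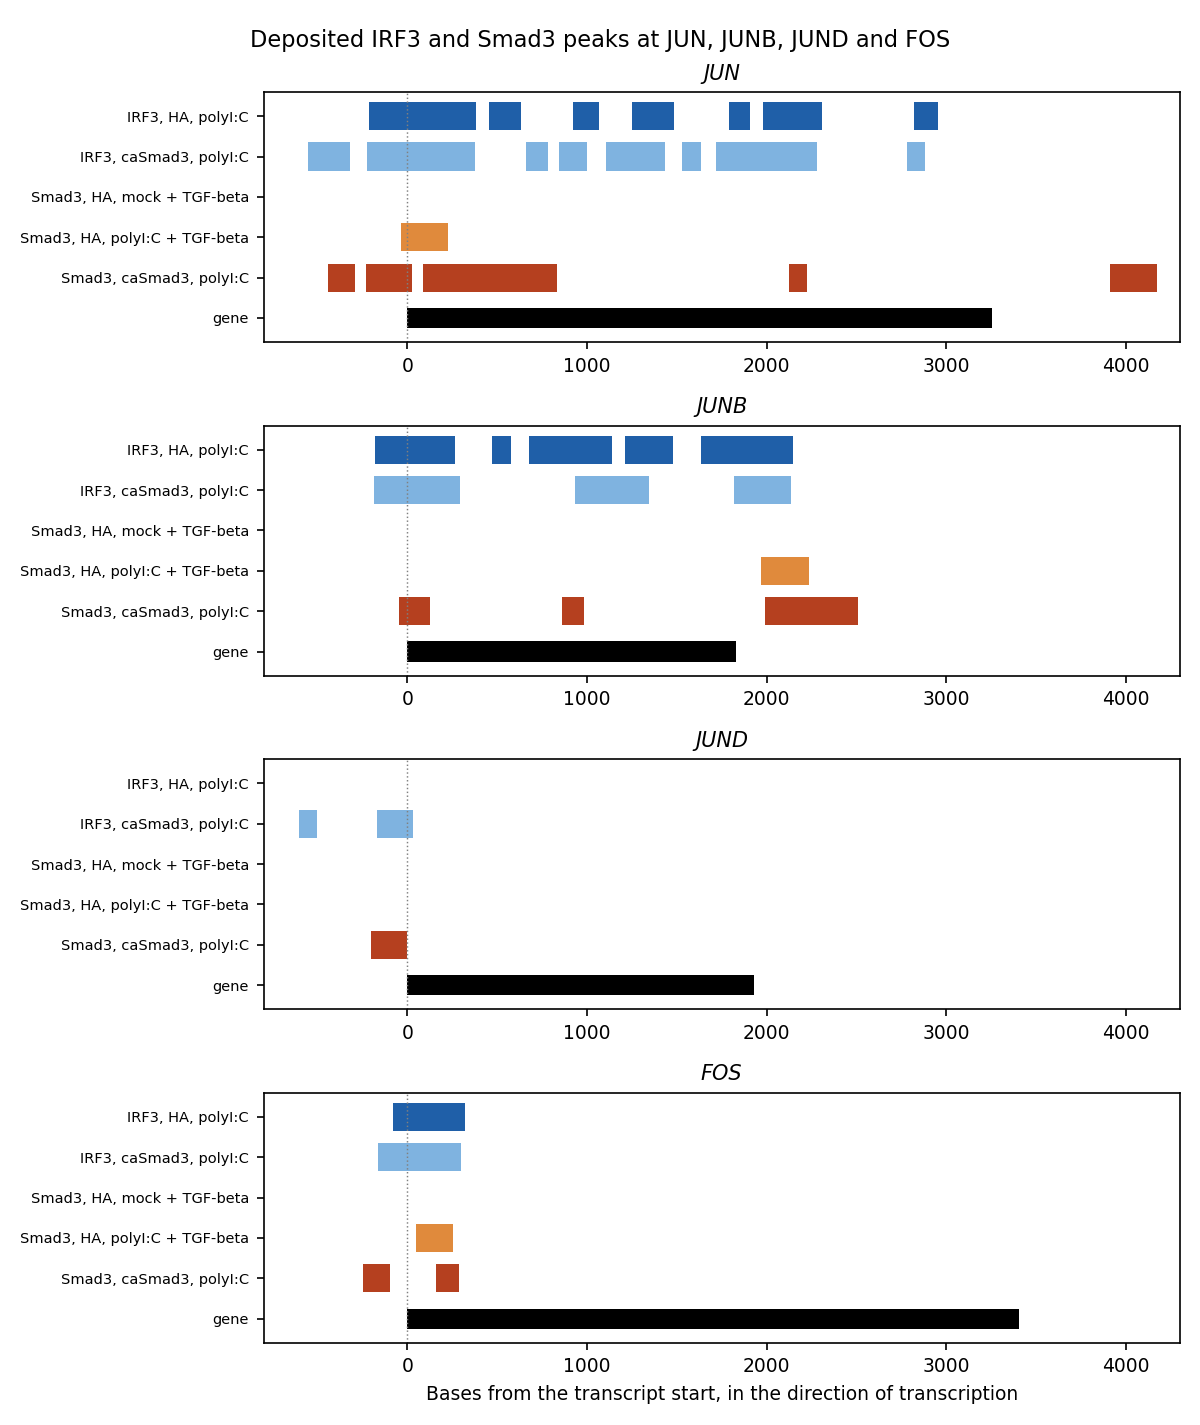
Deposited peaks of the 5 libraries (coloured bars, to scale) at JUN, JUNB, JUND and FOS, by distance in bases from the transcript start in the direction of transcription, with the gene as a black bar. IRF3 bars follow one another along JUN and JUNB and sit only at the start of FOS, and the row of Smad3 after mock transfection is empty at all 4 genes. The plot is cut close to the genes, so the peaks of JUNB that lie in HOOK2 away from JUNB and over PRDX2 are not shown.

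JUND encodes JunD, which is made in most cells without a stimulus (chromosome 19, 18279694 to 18281622, minus strand, 1929 bases). It had 2 IRF3 peaks and 1 Smad3 peak in caSmad3 cells and 0 peaks in each of the 3 HA libraries. Peaks of both factors in caSmad3 cells with 0 in the HA libraries were found at 3.87% of all protein-coding genes. The wider IRF3 peak (203 bases, 18281589 to 18281791) covered the start and shared 166 bases with the Smad3 peak (198 bases, 18281626 to 18281823), which ended 4 bases before the gene. These widths were ordinary, as 46.3% of the IRF3 peaks and 56.1% of the Smad3 peaks of those libraries were narrower. The other IRF3 peak measured 101 bases (18282127 to 18282227) and lay 505 bases before the gene.

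FOS encodes c-Fos, the classical immediate early partner of c-Jun (chromosome 14, 75278828 to 75282230, plus strand, 3403 bases). It had 1 IRF3 peak in HA cells, 1 with caSmad3, 0 Smad3 peaks after mock transfection, 1 after polyI:C in HA cells and 2 in caSmad3 cells, and these 5 peaks joined into 1 region of 566 bases around the start (75278582 to 75279147). The IRF3 peaks measured 401 bases in HA cells (75278747 to 75279147) and 462 bases in caSmad3 cells (75278667 to 75279128) and shared 382 bases. They covered 9.40% and 8.85% of the gene body, in contrast to the coverage along JUN. The Smad3 peak of HA cells given polyI:C (206 bases, 75278876 to 75279081) lay wholly inside the IRF3 peak of HA cells. The Smad3 peaks of caSmad3 cells lay on either side of the start, with 148 bases upstream (75278582 to 75278729) and 124 bases inside the gene (75278990 to 75279113), and the IRF3 peak of the same cells touched both. The inner one overlapped the Smad3 peak of HA cells by 92 bases, and the upstream one had no counterpart there.

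FOSL1 encodes FRA1, a FOS-related protein known to be abundant in basal-like breast cancer (chromosome 11, 65892049 to 65900545, 8497 bases). It had 1 IRF3 peak in HA cells, 2 with caSmad3, 0 Smad3 peaks in either HA library and 6 in caSmad3 cells, the highest Smad3 count of the family. In all, 78 protein-coding genes (0.389%) had 6 or more Smad3 peaks there. At the gene end with the higher coordinates 3 libraries met, with IRF3 peaks of 111 bases in HA cells (65900396 to 65900506) and 344 bases in caSmad3 cells (65900275 to 65900618) and a Smad3 peak of 99 bases in caSmad3 cells (65900335 to 65900433). The other 5 Smad3 peaks measured from 106 to 232 bases, where the median of that list was 178 bases, and none overlapped an IRF3 peak. Of these 5, 1 lay inside FOSL1 (65899283 to 65899451), 1 lay 2780 bases above it (65903325 to 65903556), 1 lay 145 bases below it (65891767 to 65891904) and the other 2 lay inside the neighbouring gene CCDC85B. The second IRF3 peak of caSmad3 cells lay over FIBP, 3469 bases below FOSL1. Many Smad3 peaks thus lay in or near FOSL1, but both factors met at 1 place. The Smad3 peak there had the smallest width of its list, 99 bases.

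FOSB and FOSL2 encode the remaining FOS proteins, FosB and FRA2. Each had 1 IRF3 peak in caSmad3 cells and 0 in the other 4 libraries. Of all protein-coding genes, 14.2% likewise had peaks in the IRF3 list of caSmad3 cells only. At FOSB (chromosome 19, 45467996 to 45475179) the peak measured 101 bases (45468009 to 45468109) and began 13 bases behind the start. At FOSL2 (chromosome 2, 28392858 to 28417317) it measured 208 bases and covered the start (28392721 to 28392928), where the antisense gene FOSL2-AS1 also lies. Only 8.37% of the IRF3 peaks of caSmad3 cells were narrower than the one at FOSB, and 47.8% were narrower than the one at FOSL2.

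MAFF encodes a small MAF protein without an activation domain (chromosome 22, 38201994 to 38216511). It had 1 IRF3 peak in HA cells (151 bases, 38202065 to 38202215), 1 in caSmad3 cells (322 bases, 38201920 to 38202241) and 0 in the 3 Smad3 libraries. The peak of HA cells lay wholly inside that of caSmad3 cells, which also covered the start. ATF3, a stress-induced gene (chromosome 1, 212565407 to 212620777), and BATF3, known from dendritic cells (chromosome 1, 212686417 to 212699840), had 0 peaks in all 5 libraries. In this they were like 53.1% of all protein-coding genes.

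**Figure D3:**
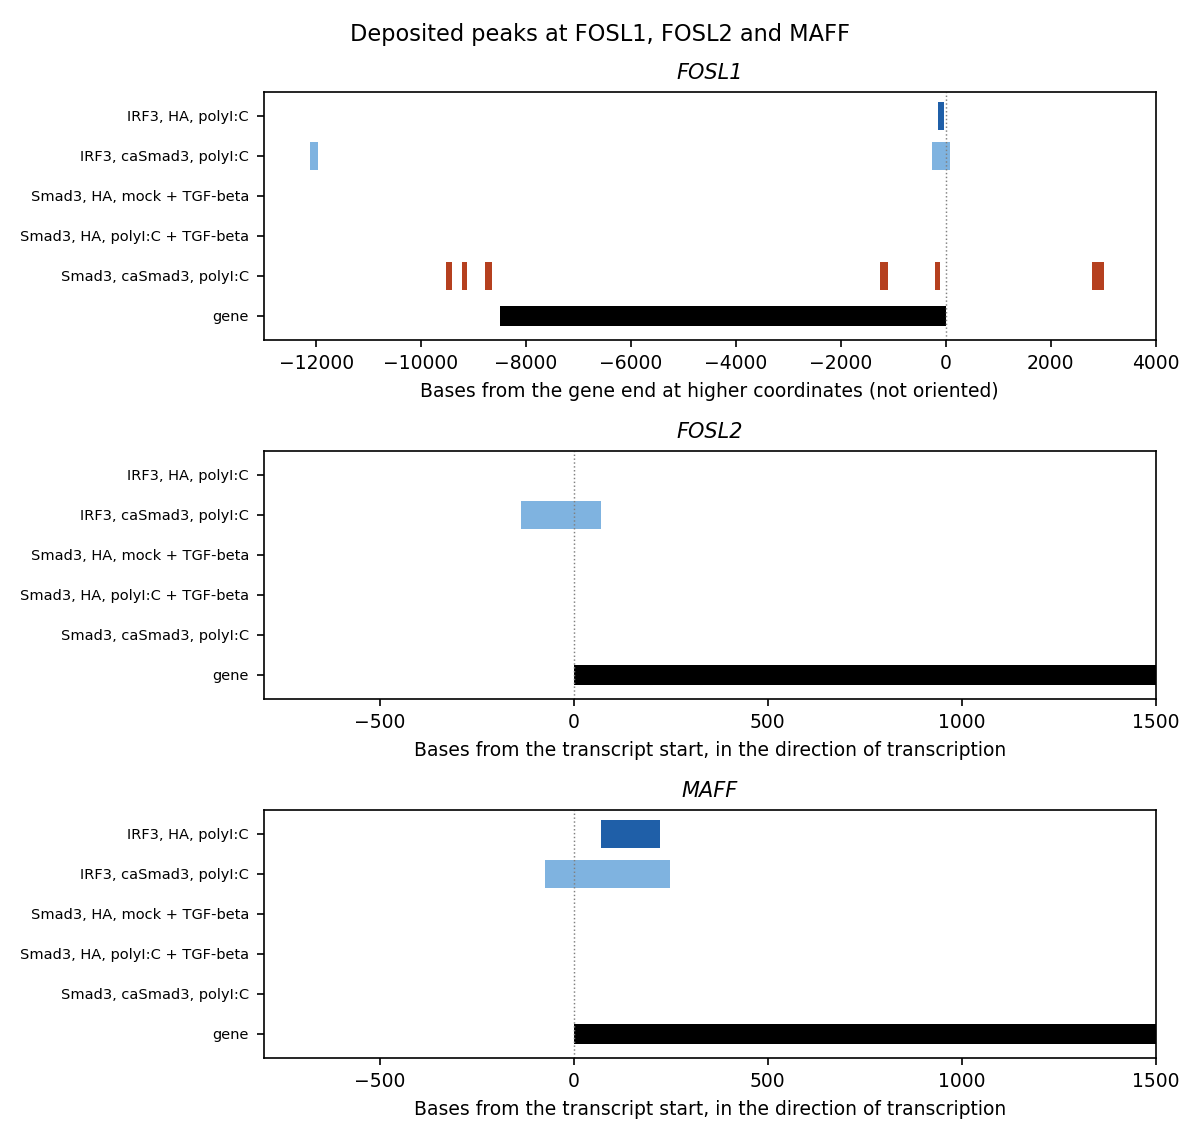
Deposited peaks of the 5 libraries (coloured bars, to scale) at FOSL1, by distance from the gene end with the higher coordinates, and at FOSL2 and MAFF, by distance in bases from the transcript start, with the gene as a black bar that runs on beyond the plot for the last 2. FOSL1 has 6 Smad3 bars in caSmad3 cells and 1 of them lies under IRF3 bars, and MAFF and FOSL2 have IRF3 bars alone.

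The comparison of IRF3 between HA and caSmad3 cells asked whether its sites at these genes were kept when active Smad3 was present. Of the 16 member peaks of HA cells, 14 had 1 base or more in common with a caSmad3 peak (87.5%, 95% Clopper-Pearson interval 61.7 to 98.4), against 82.8% of all IRF3 peaks of HA cells. The exceptions were the peak of 179 bases inside JUN (58783413 to 58783591) and that of 110 bases inside JUNB. In the other direction 12 of the 20 member peaks of caSmad3 cells overlapped an HA peak (60.0%, 36.1 to 80.9), against 40.9% of all. All 5 genes with an IRF3 peak in HA cells also had one in caSmad3 cells, and 22.0% of protein-coding genes had a peak in both lists. No gene of the family had an IRF3 peak in HA cells alone, and such genes were few in the whole list. Of all 4719 protein-coding genes with an IRF3 peak in HA cells, 4415 also had one in caSmad3 cells. The IRF3 list of caSmad3 cells was the longer one, and no test between the libraries was possible.

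The overlap of IRF3 with Smad3 was examined within the same cells. In caSmad3 cells an IRF3 peak and a Smad3 peak overlapped at 5 of the 10 genes (JUN, JUNB, JUND, FOS and FOSL1), against 11.5% of all protein-coding genes, so that every member with a Smad3 peak in these cells had a place with both. Such a place was common, as 2299 of all 3986 protein-coding genes with a Smad3 peak in these cells had one. Of the 18 Smad3 member peaks 11 overlapped an IRF3 peak (61.1%, 35.7 to 82.7), against 31.6% of all Smad3 peaks of this list. Of the 20 IRF3 member peaks 10 overlapped a Smad3 peak (50.0%, 27.2 to 72.8), against 22.8%. In HA cells given polyI:C the peaks overlapped at 3 genes (JUN, JUNB and FOS), against 1.02% of all genes, although the Smad3 library had received TGF-beta and the IRF3 library had not. There, 3 of 3 Smad3 member peaks overlapped an IRF3 peak (100%, 29.2 to 100), against 31.2% of all Smad3 peaks of that list, a share within the interval. The intervals take peaks of 1 gene as independent and cover counting error only. In caSmad3 cells JUN and JUNB held 9 of the 18 Smad3 and 12 of the 20 IRF3 member peaks. A share of all peaks inside or outside an interval is therefore no test. Shared bases of 2 lists do not show that both factors sat on the same DNA molecule. With overlap required over 50% of both peaks, 2 genes were left in caSmad3 cells and 1 in HA cells. Among the wider 50% of peaks 2 were left in caSmad3 cells. How many of all protein-coding genes were left under these stricter rules was not counted.

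**Figure D4:**
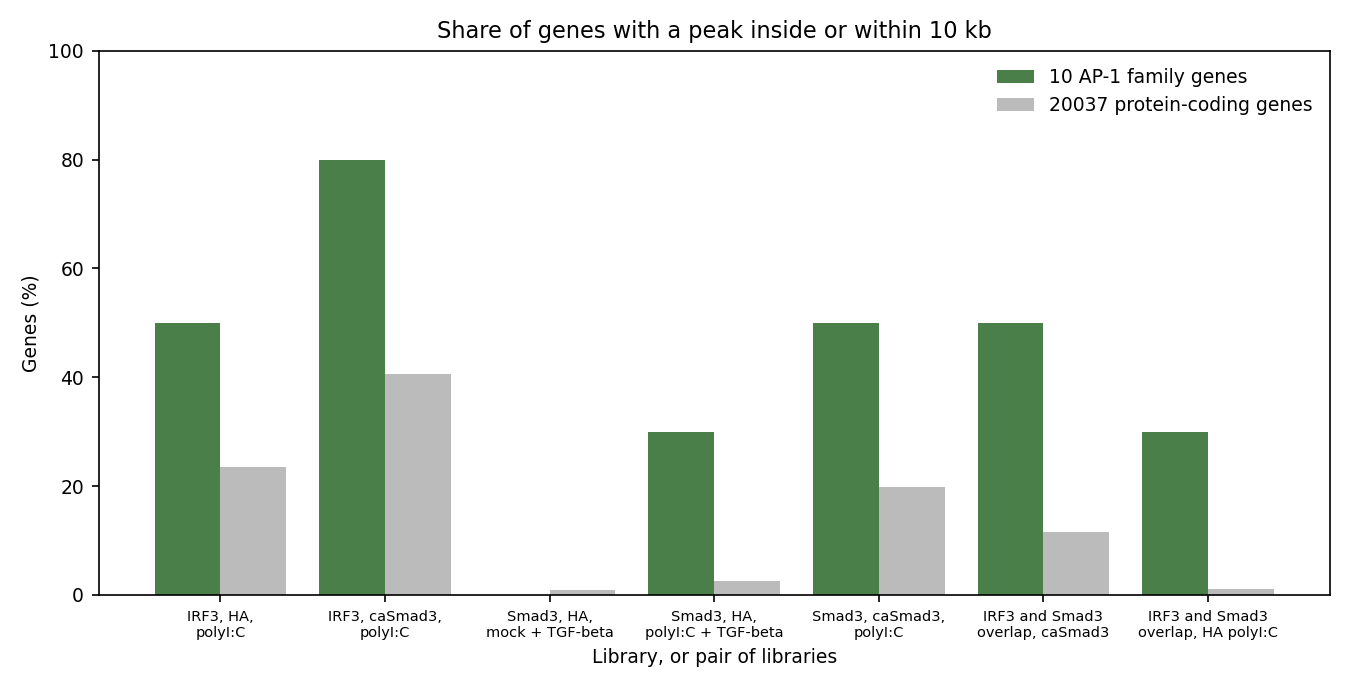
Share of the 10 AP-1 family genes (green bars) and of all 20037 protein-coding genes (grey bars) with a peak inside or within 10 kb in each library, and with an overlapping IRF3 and Smad3 peak in caSmad3 or HA cells. The green bars stand at 50%, 80%, 0%, 30%, 50%, 50% and 30% from left to right, and each gene of the family counts for 10%.

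Smad3 was compared between mock transfection and polyI:C in HA cells given TGF-beta. JUN, JUNB and FOS had 1 Smad3 peak each after polyI:C, of 264, 267 and 206 bases, and 0 after mock transfection. The 3 widths lay above 77.1%, 77.6% and 66.3% of the peaks of their list. The list of mock-transfected cells was the shortest of the 5, and 0 of 10 genes does not show that Smad3 was absent from them.

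The comparison of Smad3 after polyI:C between HA cells given TGF-beta and caSmad3 cells without it joins active Smad3 with the lack of TGF-beta, which cannot be told apart. All 3 Smad3 member peaks of HA cells overlapped peaks of caSmad3 cells, as did 86.4% of all Smad3 peaks of that list. At JUN the HA peak bridged the gap between the peaks of 747 and 253 bases, sharing 144 and 59 bases with them. Of the 18 member peaks of caSmad3 cells 4 had a counterpart in HA cells (22.2%, 6.41 to 47.6), against 10.8% of all. A Smad3 peak in both lists was found at 3 of the 10 genes, against 2.35% of all protein-coding genes. JUN, JUNB and FOS also had a peak in all 4 polyI:C libraries, as did 1.42% of all genes.

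Promoter windows from 250 bases before to 50 after the start were given for 8 of the 10 genes in the RefSeq table, with 2 starts each for ATF3 and MAFF. Both strands were searched. The AP-1 site was written as TGANTCA and the cyclic AMP response element (CRE) as TGACGTCA. A short Smad motif was written as CAGACA, and the palindromic Smad element as GTCTAGAC. The TATA box was TATAAA, the ETS site was CCGGAAG and the GC box was GGGCGG, and the ISRE core and the CArG box were searched as well. No motif of this set contains another, except that a CArG box can hold the letters of the TATA box. The AP-1 site and the CRE are shown because AP-1 and ATF proteins bind them. FOSL2 held an AP-1 site 4 bases behind the start, under its IRF3 peak of caSmad3 cells (chr2:28392847-28392876, plus strand), and MAFF a CRE that began 54 bases before the start, under the IRF3 peak of caSmad3 cells but not that of HA cells (chr22:38201744-38201993, plus strand). Capitals mark the motif.
FOSL2: ctcgtgccattgtagTGACTCAtctcgggc
MAFF: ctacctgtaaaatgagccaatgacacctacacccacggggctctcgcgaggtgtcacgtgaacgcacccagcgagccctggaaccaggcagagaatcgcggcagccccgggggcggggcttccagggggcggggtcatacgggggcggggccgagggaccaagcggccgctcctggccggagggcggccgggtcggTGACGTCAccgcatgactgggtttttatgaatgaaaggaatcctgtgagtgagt
JUND held a CRE as well, which began 200 bases before the start and lay under its Smad3 peak but outside its IRF3 peak. A CRE was found in 1.84% of 34943 promoter windows of the table and an AP-1 site in 7.72%. GC boxes lay in 8 of the 10 windows, against 44.9% of all, and the TATA box in 4, against 11.6%, the latter at JUNB, FOS, FOSB and the second start of ATF3. The TATA letters began 31, 33 and 30 bases before the start at JUNB, FOS and FOSB, but 230 bases before it at ATF3. The short Smad motif, palindromic Smad elements, ISRE cores, CArG boxes and ETS sites were found in 0 of the 10 windows, against 16.9%, 0.203%, 3.57%, 1.30% and 10.2% of all windows. Only matches to the set letters inside the windows were counted, so variants of a motif and sites farther from the start would be missed. These letters describe the windows and do not show what was bound there.

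Further genes of the AP-1 network were counted in the same way. Of 23 further bZIP genes of the ATF, BATF, JDP2, CREB, MAF, NFE2, BACH and C/EBP groups, 9 had an IRF3 peak in HA cells, 12 had one with caSmad3, and 0, 1 and 7 had a Smad3 peak after mock transfection, after polyI:C in HA cells and in caSmad3 cells. CREM, a CREB relative, had 2, 2, 0, 0 and 1 peaks in that order of libraries. DDIT3, the stress gene that encodes CHOP, had 1, 1, 0, 0 and 1, and CEBPB had 1, 1, 0, 0 and 2. NFE2L2, which encodes the antioxidant regulator NRF2, had 0, 2, 0, 1 and 1 and was the bZIP gene of this list with a Smad3 peak in HA cells.

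Of 28 kinases, phosphatases and SRF-related factors that control AP-1, 6 and 14 had an IRF3 peak in HA and caSmad3 cells, and 0, 0 and 7 had a Smad3 peak in the 3 libraries. The MAP kinase phosphatase genes DUSP1, DUSP4 and DUSP6 each had 1 IRF3 peak in HA cells and 1 Smad3 peak with caSmad3, with 1, 1 and 2 IRF3 peaks in caSmad3 cells. Of 24 genes known as AP-1 targets, 6 and 9 had an IRF3 peak and 2, 1 and 5 a Smad3 peak. VIM, the mesenchymal filament gene, had 1, 3, 1, 0 and 1 peaks. PLAU, which encodes urokinase, had 0, 1, 1, 1 and 1, and PLAUR, its receptor, had 1, 1, 0, 0 and 2. The shares of these lists with an IRF3 peak were 39.1%, 21.4% and 25.0% in HA cells and 52.2%, 50.0% and 37.5% in caSmad3 cells, to be read against the 23.6% and 40.5% of all genes. The shares with a Smad3 peak were 0%, 0% and 8.33% after mock transfection, against 0.918% of all genes, and 4.35%, 0% and 4.17% after polyI:C in HA cells, against 2.53%. In caSmad3 cells they were 30.4%, 25.0% and 20.8%, against 19.9%. In a list of this size, 1 or 2 genes make up the shares in HA cells.

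The genes whose peaks were most like those at JUN and JUNB were histone genes. Likeness was measured over the 5 libraries by the summed widths of the peaks inside or within 10 kb, as the sum of absolute differences in bases. JUN had 1730, 2216, 0, 264 and 1514 bases, in the order IRF3 in HA and caSmad3 cells and Smad3 after mock transfection, after polyI:C and in caSmad3 cells. H4C6 was nearest with 1528, 2097, 0, 224 and 1312 bases (sum of differences 563), followed by H1-2 and H2AC15 (578 each). JUNB had 2093, 1493, 0, 267 and 1036 bases, and nearest were H2AC6 with 1678, 1600, 0, 135 and 858 bases (832) and H2BC8 and H2AC8 (965 each). Histone genes lie close together, so that neighbours share peaks, and H2BC8 and H2AC8 had the same sums in every library.

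The limit of 10 kb left out some peaks by a small margin. The nearest outside it were Smad3 peaks 11690 bases below FOSB in HA cells given polyI:C (192 bases, 45456115 to 45456306) and 11648 bases below it in caSmad3 cells (318 bases, 45456031 to 45456348), where no protein-coding gene lies. The farthest inside it were the Smad3 peak in HOOK2, 8374 bases from JUNB, and the IRF3 peak of caSmad3 cells at PRDX2, 8351 bases from it.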

How the data were processed

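ChIP-seq libraries were sequenced for IRF3 and Smad3, 1 per group, after 15 cycles of PCR, per the labels' protocols. Bowtie2 2.2.2.6, MACS2 2.1.0 and hg38 are named in the submitters' processing notes. Peak thresholds, input controls and duplicate handling were not given in the sources used here. For each sample the authors deposited 1 list with 4 columns (chromosome, start, end, name), so the deposited values are positions in bases, with no score or read count. Starts were made 1-based.

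Genes and promoter windows came from RefSeq tables of GRCh38.p14. The first table has no strand or exons, so strand and starts were taken from the promoter table. Of 3 further gene lists, genes with a peak in at least 3 libraries were named, at most 4 per list. The members and lists were chosen with earlier results of these data known. Peaks with 1 base or more in common were called overlapping. No test was made. Counting was tested on simulated data. Python 3.11.15, pandas 2.3.3 and SciPy 1.17.1 were used. Alternatives changed the window, peak width, gene extent, assignment and overlap.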

Additional observations from a re-analysis of the deposited data

How the results depend on the processing

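Of 49 member counts under 7 alternative settings, 42 stayed within 1.5 times the reported count, and 7 moved. In the wider 50% of peaks of each library, IRF3 peaks lay at 3 genes for HA, at 5 for caSmad3 and at 3 for both, and IRF3 and Smad3 overlapped at 2 genes in caSmad3 cells. With 50% of both peaks in common, overlap was left at 2 genes for caSmad3 and at 1 for HA. A window of 50 kb gave 8 genes with a Smad3 peak in caSmad3 cells. Only members were counted under the 7 settings, so no share of all protein-coding genes stands beside these counts. Windows of 1 kb, gene ends alone, the nearest protein-coding gene and centres within 500 bases moved no count by more than 1.5 times. The setting of gene ends alone kept peaks within 10 kb of either end, which at short genes are the same peaks. Only FOSL2 (24460 bases) and ATF3 (55371 bases) were long enough to lose a peak, and neither had one far from its ends. The counts under that setting could therefore not move, and they show no stability. Among all 59665 genes of the table, non-coding included, 12.2% and 21.1% had an IRF3 peak in HA and caSmad3 cells, and 1.80% and 11.6% a Smad3 peak after polyI:C in HA cells and in caSmad3 cells. No paired analysis was possible because each group held 1 library, and no library could be left out of a group. Depth is unknown, which limits any reading of a missing peak.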

Other observations

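Between 10 kb and 50 kb from the AP-1 family genes, some peaks lay where no protein-coding gene is found. JUN had a Smad3 peak of 466 bases in caSmad3 cells, 24992 bases below the gene (chromosome 1, 58755334 to 58755799). At FOS lay a Smad3 peak 334 bases wide (chromosome 14, 75259027 to 75259360) and an IRF3 peak of 150 bases (75258822 to 75258971) in caSmad3 cells, 19468 and 19857 bases below the gene, which lay side by side without a base in common. FOSL1 had Smad3 peaks of 398 bases, 15195 bases above it (chromosome 11, 65915740 to 65916137), and of 180 bases, 18321 bases below it (65873549 to 65873728), in caSmad3 cells. A pair of Smad3 peaks of caSmad3 cells, of 112 and 132 bases, lay between ATF3 and BATF3, 18947 and 18659 bases below BATF3 (chromosome 1, 212667359 to 212667470 and 212667627 to 212667758). None of these places had a Smad3 peak in either HA library. The place below FOSB, named above, did so after polyI:C.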
